A study of Mus musculus with 4 samples.

Results

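Chemokines are small secreted proteins that steer leukocytes. The 10 chemokine genes described here, Ccl2, Ccl3, Ccl4, Ccl5, Ccl17, Ccl22, Cxcl2, Cxcl9, Cxcl10 and Cxcl16, were taken by symbol, as genes that dendritic cells (DC) are known to express. Every probe set annotated to 1 of these symbols was used. That gave 11 probe sets of 22626 tested, and 10 genes of 12393 with a probe set of a single symbol. Cxcl16 had 2 probe sets and the other genes 1 each, and 0 probe sets carried a member's symbol together with another. Probe sets whose mean log2 value was under 5.525, the 40th percentile, were counted as dim, and 0 of the 11 were.

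The values come from 4 Affymetrix arrays of splenic DC. TCDD is a dioxin that activates the aryl hydrocarbon receptor (AhR), a ligand-gated transcription factor. In the TCDD group female C57BL/6 mice aged 8 to 12 weeks received 10 µg/kg TCDD in corn oil by intraperitoneal injection, and in the DMSO group mice of the same strain, sex and age received the DMSO solvent in corn oil. DC were isolated after 24 h from pooled spleens of 3 mice per group on a density gradient, and magnetic sorting brought them to over 90% purity. Each group has 2 arrays, numbered as biological replicates 1 and 2. The sources used here do not say whether each array had mice of its own, so the p-values below measure the spread between these arrays, which may be technical.

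A chemokine binds a G protein-coupled receptor on the leukocyte it attracts, and the receptor decides which cell responds. Ccl3, Ccl4 and Ccl5 act on T cells, NK cells and monocytes, and Ccl2 draws monocytes through Ccr2. Ccl17 and Ccl22 are ligands of Ccr4 on T cells and regulatory T cells, Cxcl9 and Cxcl10 are ligands of Cxcr3 on activated T cells and NK cells, and Cxcl2 attracts neutrophils through Cxcr2. Cxcl16 is made as a membrane protein that binds Cxcr6 and is shed by the proteases Adam10 and Adam17. Interferon signalling drives Cxcl9 and Cxcl10, and NF-kB drives most of the inflammatory members.

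The arrays themselves differed in ways that touch the members. The median log2 value was 6.0 in TCDD replicate 1 and 5.9 in the other 3 arrays. In TCDD replicate 1 the 3′ control probe set of Gapdh exceeded the middle one by 3.6 on the log2 scale, against 2.0 in TCDD replicate 2 and 1.5 and 2.1 in DMSO. The gap for beta-actin was 4.0 in that array, against 2.0 in TCDD replicate 2 and 1.9 and 2.1 in DMSO. From 3′ to 5′ the arrays differed less. That gap for Gapdh was 5.4 in TCDD replicate 1, 4.7 in TCDD replicate 2 and 4.1 and 4.9 in DMSO. For beta-actin it was 4.4 in TCDD replicate 1, 3.3 in TCDD replicate 2 and 4.0 and 3.7 in DMSO. Across the table, bright probe sets sat lower in TCDD than dim ones did: the median difference of all probe sets was -0.35 at mean levels from 8 to 9, -0.20 from 7 to 8 and 0.00 from 6 to 7. The median at the level of Ccl3, Ccl4, Ccl5, Cxcl9 and Cxcl16 is therefore given with each of them below. For the remaining members it was 0.05 at levels from 5 to 6 (Ccl17), 0.00 from 6 to 7 (Ccl2, Ccl22 and Cxcl10) and -0.20 from 7 to 8 (Cxcl2).

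Lower values after TCDD were seen for Ccl3, Ccl5, Cxcl9 and Cxcl16, and none of the members passed the test. Limma, fitted over all 22626 probe sets with Benjamini-Hochberg adjustment, called 0 of the 11 member probe sets at an adjusted p under 0.05, and 0 of all probe sets (0% called). The members' adjusted p ranged from 0.349 to 0.822 in limma, and 0.349 was also the smallest value in the whole table. At an unadjusted p under 0.05 limma held 2 members, Ccl3 and Cxcl9, both lower in TCDD; over all probe sets 2958 did so, or 13.1%. In 5 member probe sets of 4 genes (Ccl3, Ccl5, Cxcl9 and both of Cxcl16) the TCDD arrays both lay below the DMSO arrays, and in 0 both lay above. The background shares are 18.4% below and 19.0% above over all probe sets. In numbers these are 4156 probe sets below and 4306 above, with median centring 5567 below and 2977 above, with quantile normalization 3722 below and 4773 above, and with cyclic loess 5116 below and 5064 above. The member count below was 6 with median centring, 2 with quantile normalization and 3 with cyclic loess. The share below also depends on level: it was 17.5% at levels from 6 to 7, 31.1% from 7 to 8, 37.2% from 8 to 9 and 36.3% from 10 to 11, the levels at which the 5 probe sets lie. The median difference of the 11 probe sets was -0.45, against 0.00 for all probe sets and -0.10 with dim probe sets removed. At the levels of the members the median of all probe sets ran from 0.05 (5 to 6) to -0.35 (8 to 9). The members' median was -0.28 with quantile normalization, -0.50 with median centring and -0.30 with cyclic loess.

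**Figure D1:**
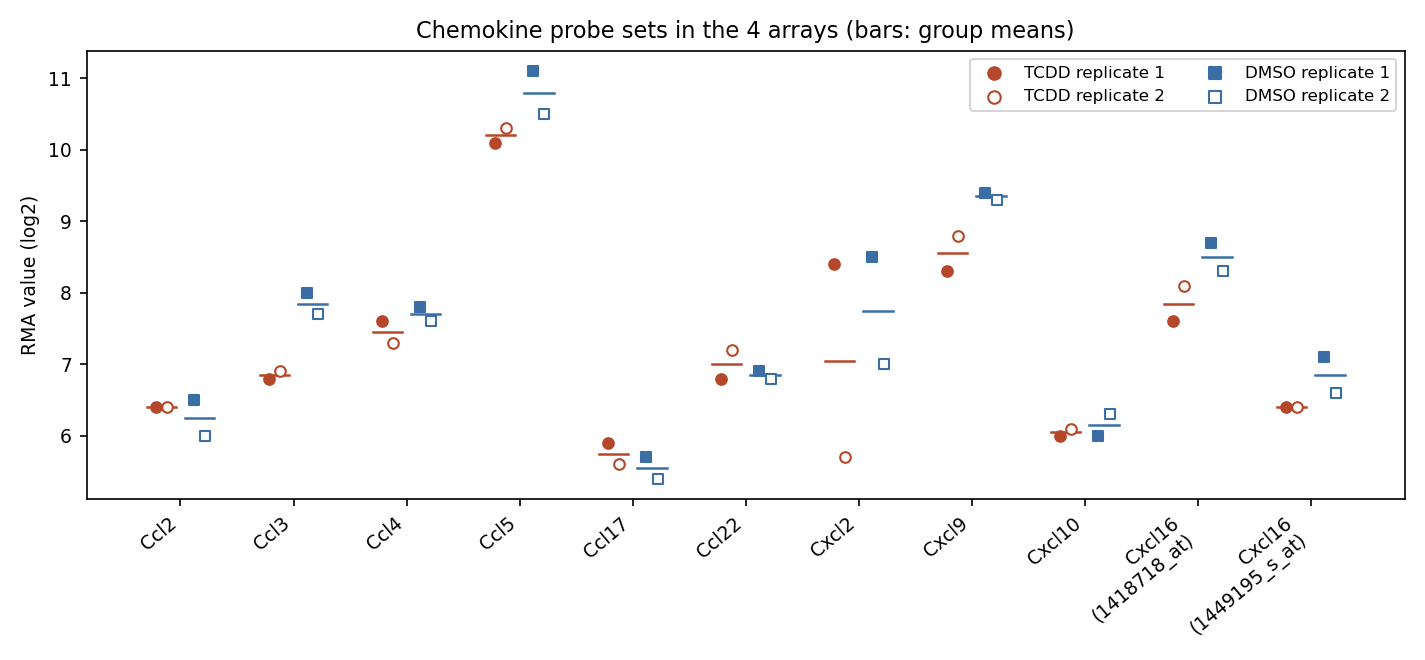
RMA values (log2 scale, vertical axis) of the 11 chemokine probe sets in each array, with TCDD as circles and DMSO as squares; filled symbols are replicate 1, open symbols replicate 2, and bars the group means. Ccl3 lies at 6.8 and 6.9 in TCDD and at 8.0 and 7.7 in DMSO, while Cxcl2 spreads from 5.7 to 8.4 within TCDD.

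Ccl3, encoding the inflammatory chemokine MIP-1 alpha, had the largest difference among the members. Its probe set lay at 6.8 and 6.9 in TCDD, against 8.0 and 7.7 in DMSO. Both TCDD arrays lay well below both DMSO arrays, and the gap between the groups exceeded the gap within either, which was 0.1 in TCDD and 0.3 in DMSO. The difference was -1.0 (SE 0.143, n = 2 per group), a 0.50-fold level, with an unadjusted p of 0.00579 and an adjusted p of 0.349 in limma. It was the 1 member whose groups were 2-fold or more apart and did not overlap. Over all probe sets 2.35% were lower in that way and 0.398% higher, or 531 and 90 probe sets; quantile normalization gave 246 lower and 133 higher, and cyclic loess 291 and 100. At levels from 7 to 8 the median of all probe sets was -0.20. Ccl3 stood at -0.81 after quantile normalization and -0.85 after cyclic loess. With 1 array left out its difference ranged from -1.15 to -0.85, and the ends of that range came from leaving out a DMSO array. The difference was -0.95 with TCDD replicate 2 alone and -1.05 with TCDD replicate 1 alone.

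Ccl4, encoding MIP-1 beta, is a neighbour of Ccl3 on mouse chromosome 11, where their annotated loci overlap in RefSeq. Its probe set lay at 7.6 and 7.3 in TCDD and at 7.8 and 7.6 in DMSO. The groups met at 7.6, and the difference of -0.25 (SE 0.159, adjusted p = 0.536 in limma) was close to the median of -0.20 for probe sets at that level. It was 0.00 after quantile normalization. Whether Ccl3 and Ccl4 differ in their response was not tested.

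Ccl5, encoding RANTES, lay at 10.1 and 10.3 in TCDD and at 11.1 and 10.5 in DMSO. The groups did not overlap, but the lower DMSO array was only 0.2 above the higher TCDD array. The difference was -0.60 (SE 0.264, adjusted p = 0.441 in limma), a 0.660-fold level, and the median of probe sets at levels from 10 to 11 was -0.30. With quantile normalization it was -0.28 and the groups overlapped, with cyclic loess it was -0.30 and they overlapped too, and without DMSO replicate 1 it was -0.30.

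T cells and NK cells also make Ccl5, Ccl3 and Ccl4. Of 10 measured T and NK cell markers 6 lay above the dim threshold. Of the 10, 0 were lower without overlap and 1 higher, beside 18.4% and 19.0% over all probe sets. After cyclic loess 3 of the markers were lower and 1 higher. Their mean level was 5.83 and 5.55 in TCDD, against 5.83 and 5.59 in DMSO, so the groups overlapped. The T cell receptor subunit gene Cd3e lay at 7.1 and 6.9 in TCDD and 7.1 and 7.1 in DMSO, and Nkg7, a granule gene of NK and cytotoxic T cells, at 6.1 and 5.7 in TCDD and 6.3 and 6.0 in DMSO. Of the other named genes of that list, the granzyme gene Gzma differed by -0.25 and the T cell receptor subunit gene Cd3d by 0.10. In a sorted preparation fewer cells of a type and less RNA per cell cannot be told apart.

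Ccl2, encoding the monocyte attractant MCP-1, lay at 6.4 and 6.4 in TCDD and at 6.5 and 6.0 in DMSO. Both TCDD values lay inside the DMSO range. The difference was 0.15 (SE 0.212, adjusted p = 0.757 in limma), and without DMSO replicate 2 it was -0.10.

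The Ccr4 ligands Ccl17 and Ccl22 had small positive differences, as Ccl2 did, and their groups overlapped. Ccl17, encoding TARC, lay at 5.9 and 5.6 in TCDD and at 5.7 and 5.4 in DMSO, near the dim threshold. Its difference was 0.20 (SE 0.183, adjusted p = 0.638 in limma), and each group spread over 0.3. Ccl22, encoding MDC, lay at 6.8 and 7.2 in TCDD and at 6.9 and 6.8 in DMSO, with a difference of 0.15 (SE 0.179, adjusted p = 0.732 in limma). The higher value came from TCDD replicate 2, and without it the difference was -0.05. Ccl17 and Ccl22 lie on chromosome 8 with 1 protein-coding gene between them, the chemokine gene Cx3cl1, which lay at 6.7 and 6.6 in TCDD and at 6.7 and 6.6 in DMSO.

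Cxcl9, the interferon-gamma-induced chemokine MIG, lay at 8.3 and 8.8 in TCDD and at 9.4 and 9.3 in DMSO. Both TCDD arrays were below both DMSO arrays, and TCDD replicate 1 was the lower of its group. The difference was -0.80 (SE 0.216), a 0.574-fold level, with an unadjusted p of 0.0337 and an adjusted p of 0.379 in limma. The median of probe sets at levels from 8 to 9 was -0.35. Quantile normalization gave -0.44 with overlapping groups, cyclic loess -0.50 without overlap, and without TCDD replicate 1, the array with the larger 3′ gaps, it was -0.55.

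Cxcl10, the interferon-induced IP-10, is the next protein-coding gene to Cxcl9 on chromosome 5. It lay at 6.0 and 6.1 in TCDD and at 6.0 and 6.3 in DMSO, and the TCDD values lay inside the DMSO range. The difference was -0.10 (SE 0.143, adjusted p = 0.757 in limma), and without DMSO replicate 2 it was 0.05.

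Cxcl16 was measured by 2 probe sets. The brighter one lay at 7.6 and 8.1 in TCDD and at 8.7 and 8.3 in DMSO; the dimmer one at 6.4 and 6.4 in TCDD and at 7.1 and 6.6 in DMSO. In both the TCDD arrays were below the DMSO arrays, with 0.2 between the nearest pair. The differences were -0.65 (SE 0.267, adjusted p = 0.441 in limma) and -0.45 (SE 0.212, adjusted p = 0.444 in limma), with a mean over the 2 of -0.55. With 1 array left out the brighter one ranged from -0.90 (without TCDD replicate 2) to -0.40 (without TCDD replicate 1), and the dimmer one from -0.70 (without DMSO replicate 2) to -0.20 (without DMSO replicate 1). They measure the same RNA and are not replicates of the condition. The median at the brighter one's level, from 8 to 9, was -0.35, and at the dimmer one's, from 6 to 7, 0.00. After quantile normalization the brighter stood at -0.31 with overlapping groups and the dimmer at -0.38 without overlap, and after cyclic loess they stood at -0.39 with overlap and -0.42 without. The proteases that shed Cxcl16, Adam10 and Adam17, differed by -0.40 each; Adam10 lay at 8.5 and 8.0 in TCDD and 8.5 and 8.8 in DMSO, and Adam17 at 8.6 and 8.8 in TCDD and 8.7 and 9.5 in DMSO.

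Cxcl2, the neutrophil attractant MIP-2, varied more within groups than between them. It lay at 8.4 and 5.7 in TCDD, against 8.5 and 7.0 in DMSO. Replicate 1 was the higher array in both groups, by 2.7 in TCDD and by 1.5 in DMSO. The difference was -0.70 (SE 1.26, adjusted p = 0.822 in limma). Without TCDD replicate 2 it was 0.65, without TCDD replicate 1 it was -2.05, and without DMSO replicate 1 it was 0.05, so no direction can be given.

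Neutrophils and macrophages also make Cxcl2. Of 9 measured neutrophil markers, all above the dim threshold, 2 were higher without overlap and 0 lower (4 and 0 after quantile normalization or cyclic loess). Over all probe sets 20.9% were higher without overlap at levels from 6 to 7, where both of the 2 lie. The mean level of the 9 markers was 7.68 and 6.30 in TCDD and 6.47 and 6.10 in DMSO. The alarmin genes S100a8 and S100a9 stood out in TCDD replicate 1: S100a8 lay at 10.3 and 5.6 in TCDD and 6.4 and 5.9 in DMSO, and S100a9 at 9.6 and 5.3 in TCDD and 6.4 and 5.6 in DMSO. The granule gene Ngp differed by 0.90 with overlapping groups, at 8.8 and 6.9 in TCDD and 7.2 and 6.7 in DMSO. Camp, also a granule gene, differed by 1.35 without overlap. Other markers of the list moved little. Csf3r lay at 7.4 and 7.3 in TCDD and 7.4 and 7.3 in DMSO, and Elane at 6.5 and 6.6 in TCDD and 6.6 and 6.6 in DMSO. Ltf differed by 0.25 with overlapping groups. Of the 9 markers 7 differed by more than 0, 1 by less and 1 by 0. In both groups replicate 1 was the higher array for Cxcl2, S100a8 and S100a9. The part of neutrophil RNA in the Cxcl2 values was not tested.

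**Figure D2:**
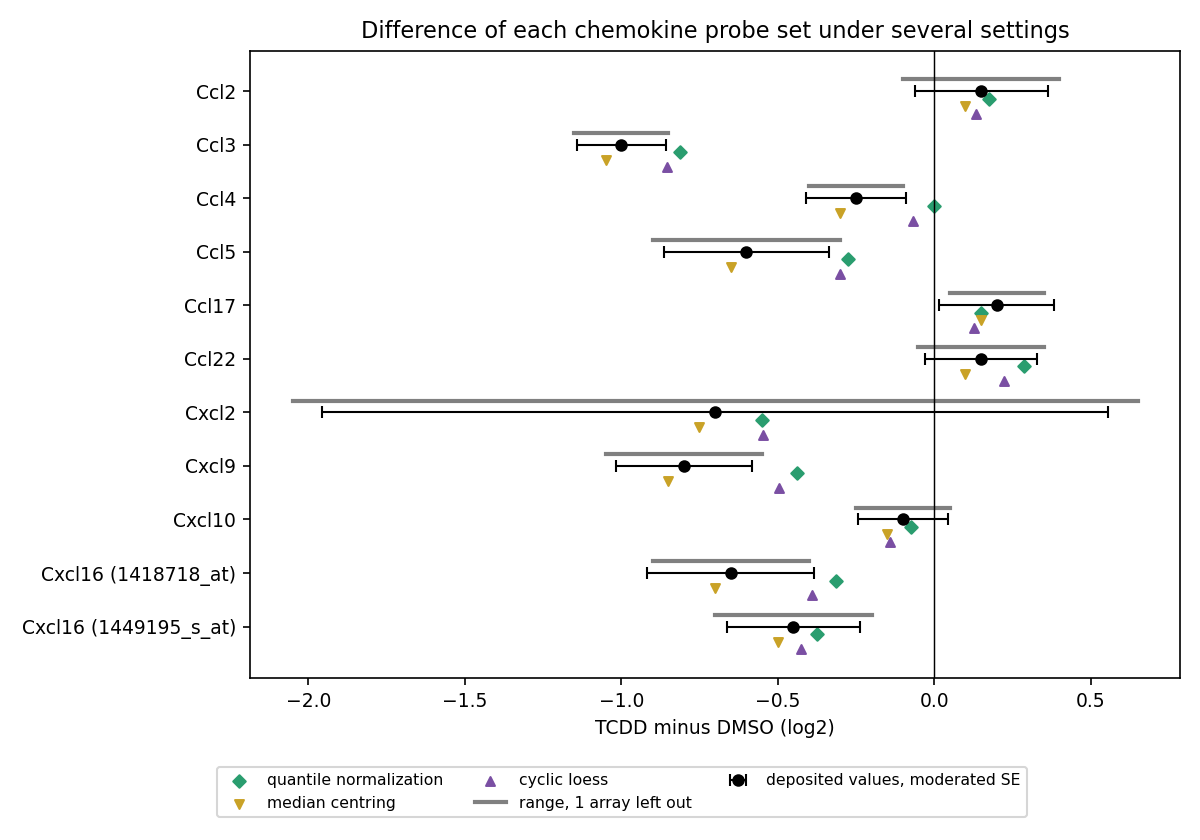
Difference between TCDD and DMSO (log2, horizontal axis) for each chemokine probe set; black points with bars are the deposited values with limma's moderated SE, coloured symbols are 3 further scalings, and grey lines the range with 1 array left out. Ccl3 stays between -1.15 and -0.81, while Cxcl2 spans from -2.05 to 0.65.

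The RefSeq table of promoters, build GRCm38.p6, held 6 of the 10 genes: Ccl3, Ccl17, Ccl22, Cxcl2, Cxcl9 and Cxcl10. The 250 bases before the annotated start are printed for Ccl3 and Cxcl9, the members with an unadjusted p under 0.05, for Cxcl10 as the neighbour of Cxcl9, and for Cxcl2 as the member that varied most within groups. Capitals mark matches to the AhR response element core (GCGTG, or CACGC on the other strand) and to the 10-base kB consensus bound by NF-kB, searched on both strands.
Ccl3, chr11:83649379-83649628, minus strand: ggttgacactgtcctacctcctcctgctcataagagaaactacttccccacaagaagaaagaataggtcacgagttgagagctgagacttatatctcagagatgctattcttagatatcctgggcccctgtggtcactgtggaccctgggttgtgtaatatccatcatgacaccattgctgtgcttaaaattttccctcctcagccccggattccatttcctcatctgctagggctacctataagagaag
Cxcl9, chr5:92328080-92328329, minus strand: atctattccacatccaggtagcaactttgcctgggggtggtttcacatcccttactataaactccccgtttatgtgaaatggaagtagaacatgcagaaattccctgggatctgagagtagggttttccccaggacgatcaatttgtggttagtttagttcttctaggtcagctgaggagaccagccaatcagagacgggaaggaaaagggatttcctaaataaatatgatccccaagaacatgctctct
Cxcl10, chr5:92348890-92349139, minus strand: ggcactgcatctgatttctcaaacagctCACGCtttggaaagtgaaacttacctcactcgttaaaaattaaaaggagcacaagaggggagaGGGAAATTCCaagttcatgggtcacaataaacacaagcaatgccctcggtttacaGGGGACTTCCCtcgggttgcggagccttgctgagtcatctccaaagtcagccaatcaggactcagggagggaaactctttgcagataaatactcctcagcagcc
Cxcl2, chr5:90903649-90903898, plus strand: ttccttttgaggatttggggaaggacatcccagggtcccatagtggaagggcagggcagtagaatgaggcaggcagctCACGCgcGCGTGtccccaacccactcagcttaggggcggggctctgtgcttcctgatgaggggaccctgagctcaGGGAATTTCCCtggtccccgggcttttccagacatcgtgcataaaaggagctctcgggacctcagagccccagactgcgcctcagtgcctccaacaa

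Within these windows the AhR core was found in Ccl17, Cxcl2 and Cxcl10, 3 of 6 members, and in 28.1% of all 32817 promoters of the same length. Cxcl2 held it on both strands a few bases apart. The kB consensus was found in Cxcl2 and Cxcl10, 2 of 6, and in 7.25% of all promoters; in Cxcl10 a pair of matches overlap and a further one stands apart, and in Cxcl2 matches on both strands overlap. The interferon-stimulated response element (GAAANNGAAA) was found in Cxcl10 and in 2.97% of all promoters, the gamma-activated site (TTCNNNGAA) in Ccl17 and in 7.01%, and the AP-1 site (TGANTCA) in Cxcl10 and in 6.75%. Matches to these motifs did not overlap with the capitals. The windows of Ccl3, Cxcl9 and Ccl22 held 0 of these motifs. A match describes the letters of the window and not the binding of a factor.

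**Figure D3:**
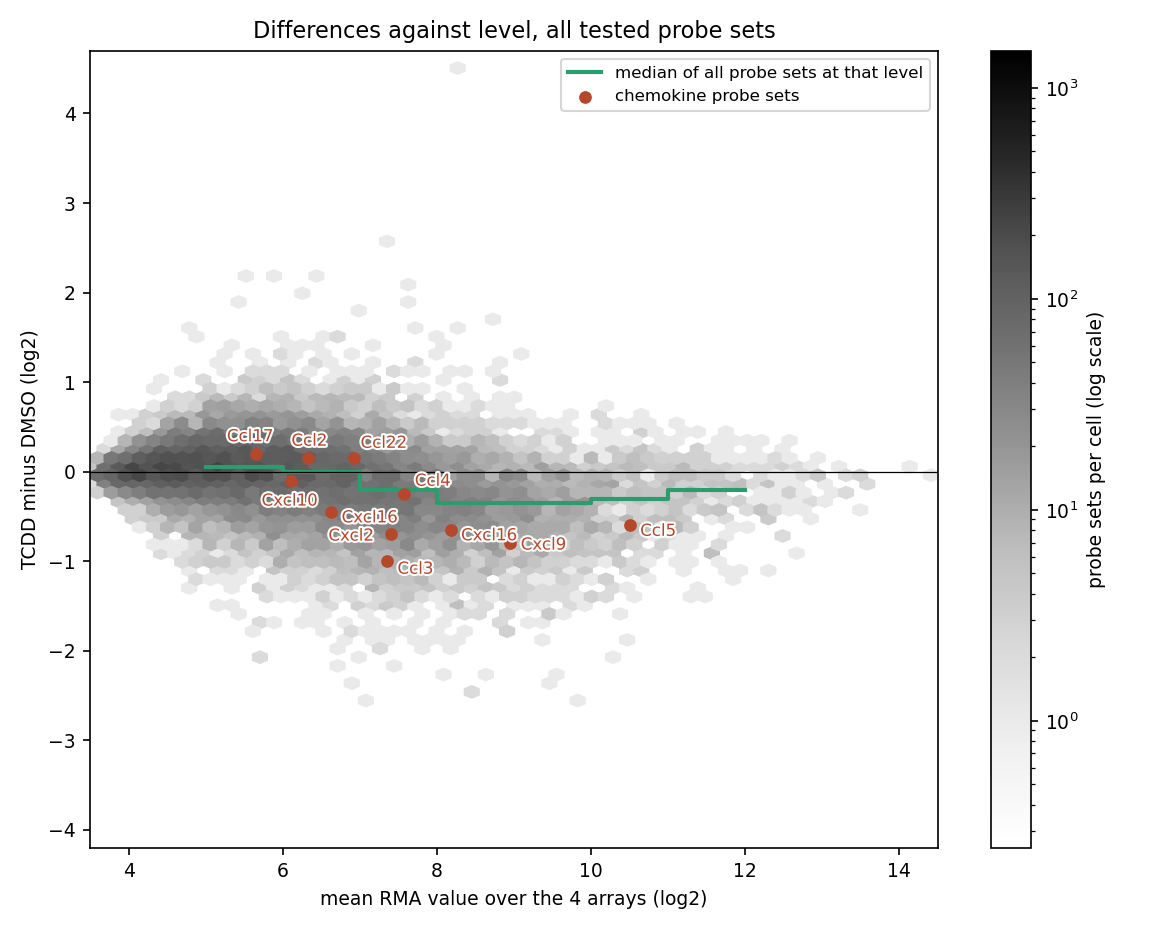
Difference between TCDD and DMSO (log2, vertical axis) against the mean RMA value over the 4 arrays (log2, horizontal axis); grey cells count all 22626 probe sets on a log shading, the green line is their median per level step from 5 to 12, and red points are the chemokines. The green line drops to -0.35 at levels from 8 to 10, and at levels from 7 to 8, where it stands at -0.20, Ccl3 lies at -1.0 and Ccl4 at -0.25.

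Other chemokine genes were mostly dim in these cells. Of 26 further chemokines 23 were measured, and 11 of the 23 lay above the dim threshold. Limma called 0 of them, 1 was lower without overlap, 6 were higher, and the median difference was 0.05. Over all probe sets 18.4% were lower and 19.0% higher without overlap, and most of the 6 lay below the dim threshold. After cyclic loess 3 of the 23 genes were lower and 7 higher. The median was 0.10 after quantile normalization, 0.00 after median centring and 0.08 after cyclic loess. Ccl6, a chemokine of myeloid cells in mice, lay at 8.3 and 7.7 in TCDD and at 9.6 and 8.4 in DMSO, a difference of -1.0 (SE 0.549, adjusted p = 0.481 in limma). Ccl9, also of myeloid cells in mice, lay at 8.3 and 7.5 in TCDD and at 9.0 and 7.8 in DMSO, and its groups overlapped. On the higher side Ccl1, a ligand of Ccr8, lay at 6.1 and 6.6 in TCDD and at 5.7 and 5.7 in DMSO (adjusted p = 0.386 in limma), and the platelet chemokine gene Pf4 differed by 0.60 with overlapping groups.

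Receptors of the members were mostly dim. Of 9 receptor genes, all measured, 4 lay above the threshold. Limma called 0, 1 was lower without overlap and 1 higher, beside 18.4% and 19.0% over all probe sets. The median difference was 0.05, and 0.04 after quantile normalization, 0.00 after median centring and -0.01 after cyclic loess. Cxcr3, the receptor of Cxcl9 and Cxcl10, lay at 7.1 and 6.7 in TCDD and at 7.1 and 6.9 in DMSO. Ccr2 differed by 0.05 and Cxcr2 by 0.20. Ackr1, an atypical receptor that binds many inflammatory chemokines without signalling, lay at 7.4 and 6.9 in TCDD and at 7.8 and 7.6 in DMSO (adjusted p = 0.441 in limma).

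Counts of lower genes in the lists upstream of the members stand beside a share of 18.4% over all probe sets. That share was 17.5%, 31.1%, 37.2% and 41.5% at levels from 6 to 7, 7 to 8, 8 to 9 and 9 to 10. In the interferon list 6 of 11 measured genes were lower without overlap and 1 higher, against 3 and 0 after quantile normalization, 7 and 0 after median centring and 4 and 0 after cyclic loess. Limma called 0, and the median difference was -0.25. That median was -0.05 after quantile normalization, -0.30 after median centring and -0.10 after cyclic loess. Ifngr1, the ligand-binding chain of the interferon-gamma receptor, lay at 8.9 and 9.2 in TCDD and at 10.0 and 9.7 in DMSO, a difference of -0.80 (SE 0.183, adjusted p = 0.379 in limma). The chains of the type I interferon receptor, Ifnar1 and Ifnar2, differed by -0.95 and -0.45, and Irf9, a subunit of the interferon-activated factor ISGF3, by -0.60, all without overlap. Irf1, which drives Cxcl9 and Cxcl10, lay at 9.2 and 9.8 in TCDD and at 9.8 and 9.6 in DMSO.

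In the NF-kB list 4 of 12 measured genes were lower without overlap and 1 higher, beside the 31.1% lower among all probe sets at levels from 7 to 8, where 6 of the 12 lie. The counts were 3 lower and 2 higher after quantile normalization, 7 and 1 after median centring, and 3 and 3 after cyclic loess. Limma called 0, and the median difference was -0.28. It was -0.09 after quantile normalization, -0.33 after median centring and -0.08 after cyclic loess. Il1b, encoding the cytokine interleukin-1 beta, lay at 7.7 and 8.1 in TCDD and at 9.6 and 8.8 in DMSO, a difference of -1.30 (SE 0.369, adjusted p = 0.379 in limma). The NF-kB subunit gene Rela differed by -0.55 and the receptor gene Tlr2 by -0.50, both without overlap, and Relb by -0.60 with overlap. The 1 gene higher without overlap was Tnfaip3, at 5.9 and 6.1 in TCDD and at 5.6 and 5.5 in DMSO. Its difference was 0.45 (SE 0.110, adjusted p = 0.379 in limma). Tnf lay at 7.9 and 8.0 in TCDD and at 8.0 and 7.8 in DMSO.

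The list of signals known to drive Ccl17 and Ccl22, interleukin-4, GM-CSF and Irf4, had 3 of 7 genes lower without overlap and 0 higher. The count lower was 1 after quantile normalization, 3 after median centring and 3 after cyclic loess. The list's median was -0.30, and -0.08, -0.35 and -0.15 after quantile normalization, median centring and cyclic loess. Csf2rb, the signalling chain of the GM-CSF receptor, lay at 5.7 and 5.8 in TCDD and at 6.5 and 6.4 in DMSO, a difference of -0.70 (SE 0.0848, adjusted p = 0.349 in limma). Stat5b and Stat5a, which carry the GM-CSF signal, differed by -0.55 and -0.30 without overlap, and Irf4 by -0.50 with overlap.

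Immediate-early genes, which cell handling can switch on along with Ccl3, Ccl4 and Cxcl2, were lower in TCDD in 9 of 16 without overlap and higher in 0. The counts were 7 and 2 after quantile normalization, 10 and 0 after median centring and 8 and 1 after cyclic loess. Over all probe sets the share lower was 31.1% to 41.5% in the level ranges from 7 to 12, where all of the list but Junb lies. Their median difference was -0.80, against -0.47 after quantile normalization, -0.85 after median centring and -0.50 after cyclic loess. Limma called 0. Egr1 lay at 11.0 and 11.4 in TCDD and at 12.0 and 12.5 in DMSO, and Ier2 at 7.6 and 7.3 in TCDD and at 9.2 and 8.3 in DMSO. Klf6 and Jun differed by -1.75 and -1.35. Set against the DMSO mean, the list's median was -0.90 for TCDD replicate 1 and -0.63 for replicate 2. Their part in the Ccl3 difference was not tested.

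Markers of the cells that can make these chemokines were measured beside them. The DC markers Itgax, Flt3, Zbtb46, Ciita, Cd74, Xcr1 and Sirpa had 6 of 7 above the dim threshold (Xcr1 was below), and their mean level was 8.13 and 8.53 in TCDD and 8.99 and 8.90 in DMSO. Of these 4 were lower without overlap, also 4 after median centring, and 1 after quantile normalization or cyclic loess. The shares of all probe sets were 31.1%, 37.2% and 41.5% at levels from 7 to 8, 8 to 9 and 9 to 10. Itgax, encoding CD11c, lay at 9.1 and 9.4 in TCDD and at 9.6 and 10.1 in DMSO. Sirpa, Zbtb46 and Cd74 differed by -1.05, -0.65 and -1.10, the last with overlap. Of 10 macrophage and monocyte markers, all above the dim threshold, 6 were lower without overlap. The count was also 6 after median centring, and 3 after quantile normalization or cyclic loess. Their mean level was 8.82 and 8.65 in TCDD and 9.47 and 9.31 in DMSO. Among them Hmox1, encoding heme oxygenase, lay at 7.7 and 7.9 in TCDD and at 8.8 and 9.0 in DMSO. The iron exporter gene Slc40a1 differed by -1.15, the lysozyme gene Lyz2 by -1.05 with overlap and the complement gene C1qa by -0.90. Of the 10 markers 9 differed by less than 0 and 1 by more. That 1 was the complement gene C1qb, at 9.9 and 8.0 in TCDD and 8.6 and 8.5 in DMSO, a difference of 0.40 with overlap. Csf1r differed by -0.15 with overlap. The median difference was -0.60 for DC markers and -0.80 for macrophage and monocyte markers. After quantile normalization these were -0.34 and -0.44, after median centring -0.65 and -0.85, and after cyclic loess -0.40 and -0.52. The part of either cell type in the differences of Ccl3, Ccl5, Cxcl9 and Cxcl16 was not tested.

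**Figure D4:**
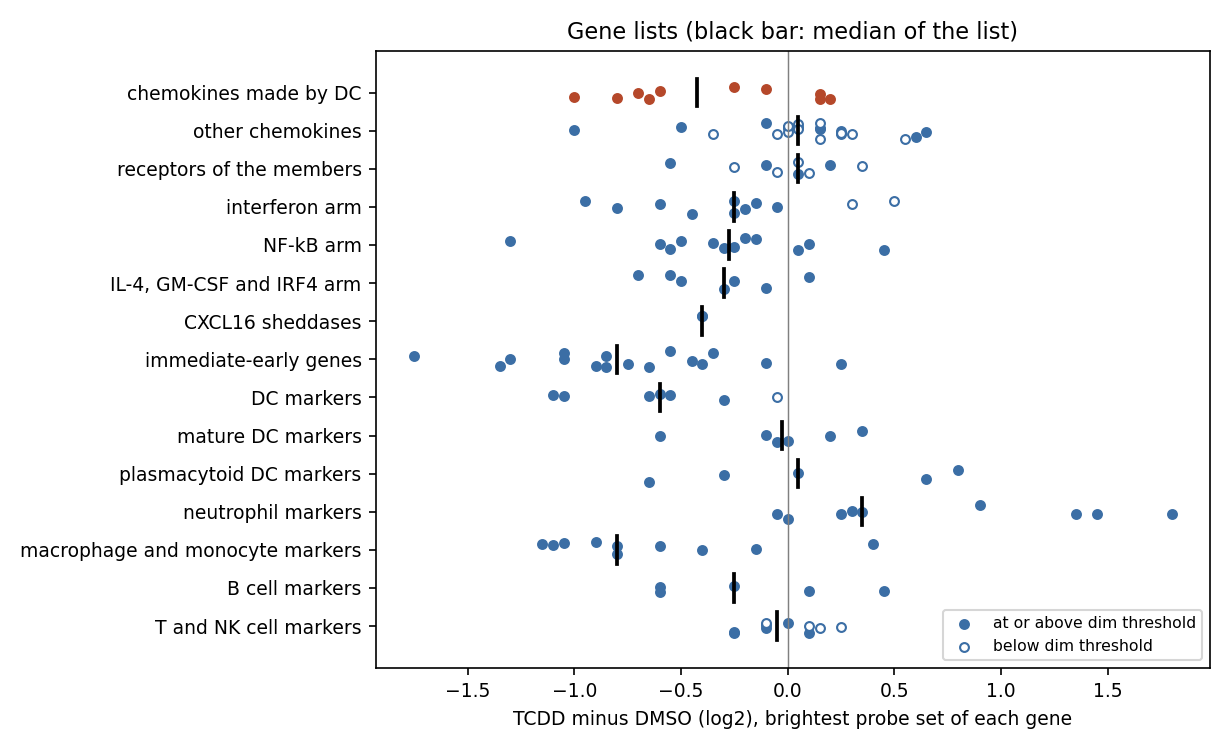
Difference between TCDD and DMSO (log2, horizontal axis) of each gene, 1 point per gene on its brightest probe set, for the chemokines and each further list; open points lie below the dim threshold and black bars are medians. The chemokines' median of -0.43 over 10 genes lies between that of the immediate-early genes at -0.80 and that of the other chemokines at 0.05.

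The probe sets most like Ccl3 across the 4 arrays, by root mean square distance after each probe set's mean was taken off, were those of Sae1 and Slc20a2, at a distance of 0.0433 on the log2 scale, and of Ppp3r1, at 0.050. Sae1 lay at 6.3 and 6.5 in TCDD and at 7.6 and 7.3 in DMSO. Of 12440 probe sets compared 23 lay within 0.1 of Ccl3. For Ccl17, the member with the largest positive difference, 11 probe sets had the same 4 steps exactly, AI837181, Deaf1 and Gna12 first by name, and 513 lay within 0.1. The likeness rests on 4 arrays.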

How the data were processed

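The authors deposited 1 table of RMA values on the log2 scale for 4 arrays, as the submitters' processing notes say. RMA (robust multi-array average) subtracts background, is meant to equalise the arrays' distributions and summarises the probes of a probe set. The distributions of these 4 arrays were not equal as deposited. Quantile normalization still moved the number of probe sets at least 2-fold lower without overlap from 531 to 246. Software, version and genome build: not given in the sources used here. Rounding to 1 decimal had left steps of 0.1. Of 22690 probe sets 64 Affymetrix controls were left out of the fit. TCDD was compared with DMSO over 22626 probe sets by limma 3.58.1 under R 4.3.3, with lmFit and eBayes, two-sided, Benjamini-Hochberg adjustment and a call under 0.05. Every difference is TCDD minus DMSO, with limma's moderated SE. The smallest p of an exact permutation test with 2 arrays per group is 0.333, so none was run. Arrays give no counts, and their number limits the precision. The fit was tested on simulated data. Genes were named by the platform's annotation, with symbols updated through RefSeq identifiers.

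The members, the lists and the tests were chosen with earlier results of these data known. For each list the brightest single-symbol probe set of a gene was used, and up to 4 genes above the dim threshold with the largest difference were named. Irf1, Tnf, Tnfaip3, C1qb, Csf1r, Ltf, Csf3r, Elane and Cx3cl1 were named outside that rule, after their values were seen. Alternatives were quantile normalization, median centring and cyclic loess, dim probe sets removed, a replicate block, a trended robust prior, no moderation, other thresholds and leaving out each array. Same-numbered arrays were not taken as pairs, since no label says so.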

Additional observations from a re-analysis of the deposited data

How the results depend on the processing

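Limma called 0 of 22626 probe sets, 2958 at an unadjusted p under 0.05, and called 0 under every alternative run, including the replicate block (smallest adjusted p 0.421), an adjusted p under 0.10 and no moderation (on the 21885 probe sets with any spread). Of the member probe sets 5 were lower without overlap; 2 were after quantile normalization, 3 after cyclic loess, 6 after median centring, 5 with the replicate block, and 5 to 8 with 1 array left out (8 without DMSO replicate 2), where 1 array in a group makes a lack of overlap easier. Scaled values carry fewer ties. Ccl3 and the dimmer Cxcl16 probe set were lower without overlap under the 3 scalings as well; the replicate block, removal of dim probe sets and leaving out an array cannot create an overlap where there was none. With 1 array left out, the difference changed sign in 4 members: Ccl2 ranged from -0.10 (without DMSO replicate 2) to 0.40, Cxcl10 from -0.25 to 0.05 (without DMSO replicate 2), Ccl22 from -0.05 (without TCDD replicate 2) to 0.35, and Cxcl2 from -2.05 (without TCDD replicate 1) to 0.65 (without TCDD replicate 2), with 0.05 without DMSO replicate 1. Over all probe sets, those at least 2-fold apart without overlap numbered 90 higher and 531 lower. At 1.5-fold they were 594 and 1894, lower ones were 246 after quantile normalization and 291 after cyclic loess, and with 1 array left out the ranges were 82 to 326 higher and 652 to 942 lower. The cause of these shifts was not tested. Across probe sets the gap of replicate 1 to replicate 2 in TCDD correlated at -0.189 with that in DMSO, which does not decide a pairing; the replicate block changed no call.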

Other observations

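Mature DC, known as makers of Ccl17 and Ccl22, were represented by 6 measured markers, all above the dim threshold. Their median difference was -0.03 on the deposited values, 0.30 after quantile normalization, -0.08 after median centring and 0.24 after cyclic loess. Cd83 lay at 9.2 and 10.0 in TCDD and at 10.2 and 10.2 in DMSO, and Il4i1, an amino acid oxidase gene of mature DC, at 6.9 and 6.8 in TCDD and at 6.6 and 6.4 in DMSO. Fscn1 differed by 0.20 and Cd86 by -0.10. Limma called 0 of the 6.

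Of 5 plasmacytoid DC markers 1 was higher without overlap, Cox6a2, at 6.9 and 7.3 in TCDD and at 6.6 and 6.3 in DMSO. Ccr9 lay at 8.5 in TCDD replicate 1, against 6.0 in TCDD replicate 2 and 6.6 and 6.3 in DMSO. Tcf4 and Bst2 differed by -0.65 and -0.30. Of 5 B cell markers 2 were lower without overlap, Ms4a1 and Cd79b at -0.60 each, and 1 was higher, Cd79a at 0.45; Blnk differed by -0.25. Limma called 0 in either list. Over all probe sets 18.4% were lower and 19.0% higher without overlap.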
